A study of Mus musculus with 13 samples.

Results

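The 10 genes described here encode the p38 mitogen-activated protein kinases and a set of feedback inhibitors of MAP kinase signalling. They are Mapk14, Mapk11, Mapk12 and Mapk13, which encode p38α, p38β, p38γ and p38δ, the dual-specificity phosphatase genes Dusp1, Dusp4, Dusp6 and Dusp10, and the Sprouty genes Spry2 and Spry4. They were chosen by symbol, each symbol was matched to 1 of the 55487 genes counted in both deposited tables, and all 10 passed edgeR's filter on low counts in every comparison. The 13 libraries are poly-A RNA-seq of primary and spontaneously immortalized mouse embryonic fibroblasts (MEFs). There were 3 wild-type (WT) primary cultures (clones 3, 4 and 5) and 3 WT immortalized lines of the same clone numbers, and 3 Prkd3-/- primary cultures (clones 13, 14 and 15) and 4 Prkd3-/- immortalized lines (13, 13a, 14 and 15). A clone number stands for cells of 1 embryo. Primary MEFs grew in medium with 10% fetal calf serum and were passaged until senescence. They were then moved to 20% serum until colonies of immortalized cells grew out, and the lines made from these outgrowths were expanded in 10% serum again. Every line had passed through the step in 20% serum, so that this step and the immortalized state cannot be told apart. Embryo age and mouse strain are not given in the sources used here.

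The p38 kinases are activated by the kinases MKK3 and MKK6 in response to stress and inflammatory cytokines, and p38α is the form found in most tissues. Dual-specificity phosphatases remove phosphate from the activation loop of MAP kinases: DUSP1 acts in the nucleus on p38 and JNK, DUSP10 prefers p38 and JNK, DUSP4 is nuclear, and DUSP6 is cytoplasmic and selective for ERK. Sprouty proteins restrain signalling from receptor tyrosine kinases to ERK, and Dusp6, Dusp4, Spry2 and Spry4 are themselves transcribed in response to ERK activity, so that their mRNA is often read as a record of that pathway.

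Library totals ranged from 55436367 to 90654323 counts in WT and from 35273408 to 100441756 in Prkd3-/-, so that the floor of 3 counts lay between 0.0277 and 0.0842 CPM, the count scaled to library size. Levels in CPM were scaled by TMM over the 13 libraries. The 10 fibroblast markers were counted in every library, with a summed level of 30907 to 94971 CPM. Prkd3 itself was still counted in the Prkd3-/- libraries, at 33.6 to 61.0 CPM against 69.2 to 93.8 CPM in WT, so that the genotype rests on the label. The primary WT cultures differed from one another by 4.16 to 6.87% (coefficient of variation beyond counting error over genes). Prkd3-/- primary culture 14 stood apart, by 36.9 and 43.2% from cultures 15 and 13, which differed by 16.2%. Immortalized lines differed by 46.6 to 54.5% in WT and by 50.8 to 79.6% in Prkd3-/-, and lines 13 and 13a, at 71.7%, were no closer than lines of different embryos. The macrophage markers, 12 genes, summed to 1415 to 1455 CPM in WT primary MEFs and to 58.1 to 138 CPM in WT immortalized lines. In Prkd3-/- MEFs they summed to 160, 2093 and 386 CPM in primary cultures 13, 14 and 15 and to 13.1 to 340 CPM in immortalized lines. Culture 14 and line 13a were thus the highest of their groups.

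Mapk11, Mapk12 and Dusp10 were higher, and Mapk13 and Spry4 lower, in every WT immortalized line than in every WT primary culture, as 14% of tested genes were above and 17.3% below, while in Prkd3-/- MEFs all 10 genes overlapped between the states. The promoters of the 4 of these genes with a RefSeq entry are shown because these are the members whose WT groups were apart, and that of Dusp1 is shown because it was the member that varied most between WT immortalized lines. Each sequence is the 250 bases before the RefSeq transcription start on GRCm38.p6, read 5′ to 3′ along the gene. The counted genes of Dusp10 and Dusp1 begin further upstream, at chr1:184013302 and chr17:26562128. Their counts can thus hold transcripts from other starts. Capitals mark the GC box (GGGCGG on either strand), and in Dusp1 the cAMP response element (CRE, TGACGTCA) alone.
Mapk11, chr15:89149607-89149856, minus strand: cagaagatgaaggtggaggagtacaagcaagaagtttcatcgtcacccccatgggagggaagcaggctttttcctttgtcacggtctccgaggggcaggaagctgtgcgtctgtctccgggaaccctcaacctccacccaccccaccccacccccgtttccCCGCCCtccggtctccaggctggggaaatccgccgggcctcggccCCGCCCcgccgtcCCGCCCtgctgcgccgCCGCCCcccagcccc
Mapk12, chr15:89140704-89140953, minus strand: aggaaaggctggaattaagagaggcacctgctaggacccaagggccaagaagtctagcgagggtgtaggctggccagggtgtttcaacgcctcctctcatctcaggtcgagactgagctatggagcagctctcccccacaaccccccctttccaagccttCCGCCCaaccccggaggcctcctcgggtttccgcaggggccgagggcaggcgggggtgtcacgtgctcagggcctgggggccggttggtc
Mapk13, chr17:28769067-28769316, plus strand: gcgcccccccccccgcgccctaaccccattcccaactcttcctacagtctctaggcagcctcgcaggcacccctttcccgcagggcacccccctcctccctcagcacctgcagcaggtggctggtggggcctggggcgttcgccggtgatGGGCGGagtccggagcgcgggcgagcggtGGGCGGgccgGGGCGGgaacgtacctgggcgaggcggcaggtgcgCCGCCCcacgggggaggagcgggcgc
Dusp10, chr1:184034131-184034380, plus strand: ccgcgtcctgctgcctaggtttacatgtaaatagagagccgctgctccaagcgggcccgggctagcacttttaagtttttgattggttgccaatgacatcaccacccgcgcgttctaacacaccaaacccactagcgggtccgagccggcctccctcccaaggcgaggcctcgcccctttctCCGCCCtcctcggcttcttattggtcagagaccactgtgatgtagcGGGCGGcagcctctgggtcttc
Dusp1, chr17:26508473-26508722, minus strand: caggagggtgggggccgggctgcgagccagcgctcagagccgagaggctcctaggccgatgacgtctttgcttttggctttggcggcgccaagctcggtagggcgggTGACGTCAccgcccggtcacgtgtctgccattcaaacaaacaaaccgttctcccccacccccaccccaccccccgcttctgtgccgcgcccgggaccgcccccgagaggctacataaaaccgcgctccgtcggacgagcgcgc

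A GC box was present in 32.7% of the 32851 promoter windows of this length, and it was found 4 times for Mapk11 and Mapk13, 3 times for Dusp1, 2 times for Dusp10 and 1 time for Mapk12 and Mapk14, and not for Dusp6 or Spry2. The full CRE palindrome, bound by CREB and ATF proteins, was found in 1.55% of windows and among the members in that of Dusp1 alone. An E-box (CACGTG) was found for Mapk12 and Dusp1, against 6.02% of windows, and neither the AP-1 site (TGANTCA, 6.75% of windows) nor a TATA box (TATAAA, 12.4% of windows) was found for any member. Promoters of 8 of the 10 members were matched, with 2 windows for Mapk14. All were richer in CpG than the median of 6 CpG per window, from 11 for Mapk12 to 30 for the first window of Mapk14. Mapk12 and Mapk11 lie in tandem on the minus strand of chromosome 15, 1.782 kb apart with no counted gene between them, so that the Mapk12 promoter shown is in the gap. Mapk14 and Mapk13 lie in tandem on the plus strand of chromosome 17, 20.89 kb apart. No exon of these 4 genes is shared with another counted gene. Of the members, only Dusp1 shares exon bases, 11 of them, with Ergic1 on the other strand.

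Mapk14, the gene of p38α, was the most abundant p38 mRNA. It measured 66.9, 67.8 and 66.7 CPM in WT primary cultures 3, 4 and 5 and 77.4, 59.9 and 57.6 CPM in the WT immortalized lines of the same numbers. The Prkd3-/- values were 63.8, 71.1 and 68.2 CPM in primary cultures 13, 14 and 15 and 76.3, 75.2, 63.0 and 57.1 CPM in immortalized lines 13, 13a, 14 and 15. The groups overlapped in both genotypes. The fitted log2 fold change (Log2FC) of immortalized over primary was -0.05 ± 0.13 (SE) in WT (adjusted p-value 0.874, edgeR) and -0.01 ± 0.17 in Prkd3-/- (adjusted p-value 0.997).

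Mapk11, the gene of p38β, was higher in the WT immortalized lines. It measured 4.80, 5.54 and 5.81 CPM in WT primary cultures 3, 4 and 5 and 16.0, 9.55 and 12.9 CPM in the lines. Every line was above every primary culture, as were 14% of the 19836 genes tested, with a Log2FC of 1.25 ± 0.22 (unadjusted p = 0.00121, adjusted p-value 0.0302, edgeR quasi-likelihood test). A gene was called only where its adjusted p-value was below 0.01 and its Log2FC was 1 or more in size, which Mapk11 did not reach. Prkd3-/- MEFs had 8.85, 8.43 and 8.22 CPM in the primary cultures and 16.3, 9.46, 15.1 and 6.81 CPM in lines 13, 13a, 14 and 15. Line 15 lay below all primary cultures and the other lines above them, and the Log2FC was 0.47 ± 0.33 (adjusted p-value 0.843), or 0.30 without line 13.

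Mapk12, the gene of p38γ, was the least abundant of the 4 per length in primary MEFs of both genotypes and differed in WT in the same direction as its neighbour Mapk11. It measured 3.47, 3.14 and 3.33 CPM in WT primary cultures and 5.22, 8.28 and 6.35 CPM in lines 3, 4 and 5, without overlap. The Log2FC was 1.00 ± 0.20 (unadjusted p = 0.00273, adjusted p-value 0.0512, edgeR), which was not called. The order of the WT lines differed between the neighbours: Mapk11 was highest in line 3 and Mapk12 lowest there. Mapk12 in Prkd3-/- MEFs measured 3.41, 4.59 and 3.42 CPM in primary cultures and 9.18, 6.18, 3.64 and 1.98 CPM in lines 13, 13a, 14 and 15. Its range over the lines was 4.63-fold and enclosed the primary values, with a Log2FC of 0.44 ± 0.51 (adjusted p-value 0.886). Without line 13 the Log2FC of Mapk12 was 0.0458, and without line 15 it was 0.72.

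Mapk13, the gene of p38δ, was the p38 gene that was lower after immortalization. It measured 13.9, 13.2 and 14.6 CPM in WT primary cultures and 8.40, 2.93 and 6.56 CPM in the WT lines. Every WT line was below every primary culture, as were 17.3% of the genes tested, and the Log2FC of -1.22 ± 0.38 was not called (unadjusted p = 0.0184, adjusted p-value 0.154, edgeR). The Prkd3-/- primary cultures 13, 14 and 15 had 21.0, 9.08 and 26.5 CPM of it. The immortalized lines fell into low and higher values, with 0.94 and 0.97 CPM in lines 13 and 14 and 8.13 and 11.7 CPM in lines 13a and 15. Line 15 was above primary culture 14, so that the groups overlapped, and the Log2FC was -1.80 ± 0.94 (adjusted p-value 0.808). Without culture 14, whose value lay below that of line 15, the groups were apart, which was looked at after the values were seen. The share of all tested genes apart in that smaller set was not computed, so nothing is drawn from it. The Log2FC without culture 14 was -2.13 ± 1.04 (adjusted p-value 0.998, edgeR). Mapk13 ranged 12.5-fold between the Prkd3-/- lines, and its SD of log2 CPM there was larger than that of 96.0% of all tested genes.

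Macrophage marker RNA moved with the state in the same libraries. All 12 markers were lower in every WT line than in every WT primary culture, 8 of them called, and 8 of the 12 had no count in Prkd3-/- line 13, C1qa, C1qc, Adgre1, Ptprc and Tyrobp among them. In bulk RNA, fewer cells of a type and less RNA per cell cannot be told apart. Among the Prkd3-/- primary cultures, culture 14 had the highest summed macrophage level and the lowest Mapk13. Line 15 had 20.2 CPM of summed macrophage markers and the highest Mapk13 of the lines. Other libraries went the other way. Line 13a, at 340 CPM, had the highest summed level of the Prkd3-/- lines and 8.13 CPM of Mapk13. Lines 13 and 14, at 17.8 and 13.1 CPM of summed markers, had the lowest Mapk13. WT line 4 was the lowest WT line in both, at 58.1 CPM of summed markers and 2.93 CPM of Mapk13. The part of other cell types in the Mapk13 values was not tested.

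**Figure D1:**
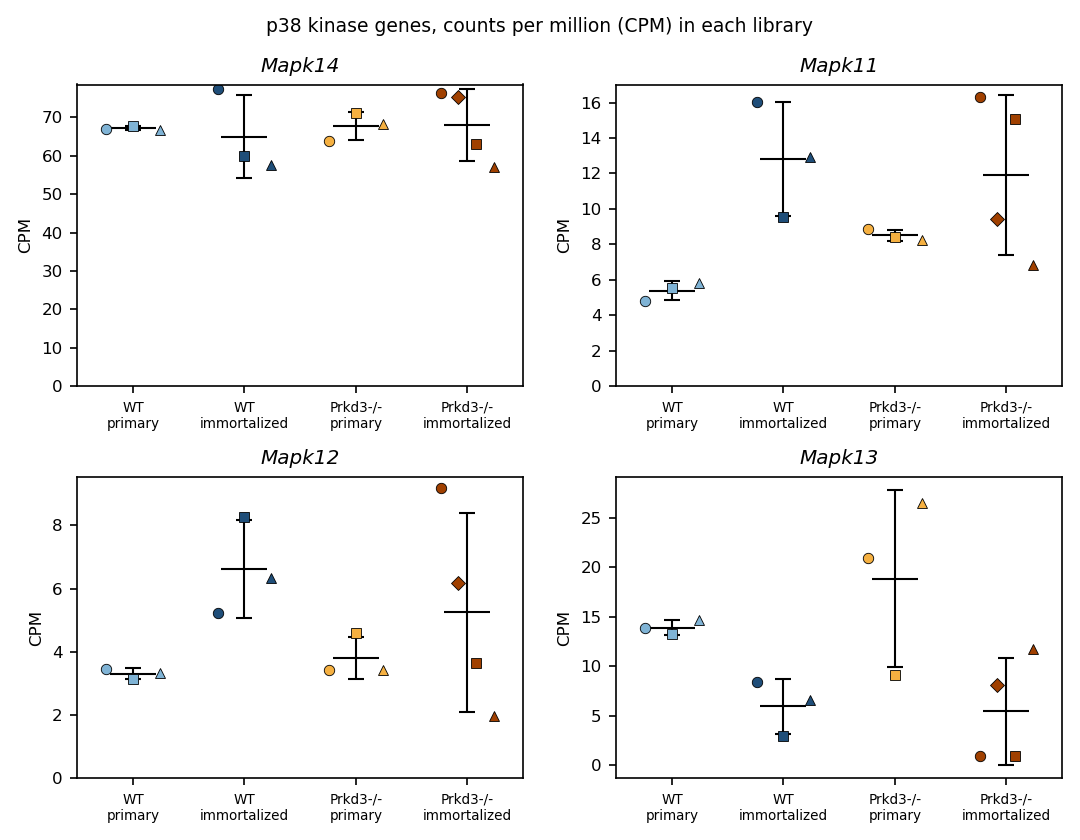
Level of the 4 p38 kinase genes in each library, in CPM, by genotype and state. Each point is 1 library (circles are clones 3 or 13, squares 4 or 14, triangles 5 or 15, the diamond line 13a), and bars give the mean ± SD. Mapk11 and Mapk12 lie above and Mapk13 below the primary cultures in all 3 WT lines. The Prkd3-/- lines spread across their primary values for Mapk14, Mapk11 and Mapk12. For Mapk13, lines 13, 13a and 14 lie below the primary cultures and line 15 lies among them.

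Read per length, the order of the 4 genes differed between the WT states while their summed levels overlapped. In FPKM (CPM per kb of exon), their summed level was 22.5 ± 0.258 (SD, n = 3) in WT primary MEFs and 22.9 ± 3.83 (n = 3) in WT lines, and 25.4 ± 2.25 (n = 3) and 22.8 ± 2.94 (n = 4) in Prkd3-/- primary MEFs and lines. Mapk14 made up 56.2 to 69.9% of the summed FPKM in every library. The order behind it in WT primary MEFs was Mapk13 at 4.42 ± 0.226, Mapk11 at 1.87 ± 0.181 and Mapk12 at 0.870 ± 0.0436 FPKM, each pair apart by more than its spread. In WT lines Mapk11 came second at 4.44 ± 1.12 FPKM, and Mapk13, at 1.89 ± 0.883, and Mapk12, at 1.74 ± 0.406, did not differ beyond their spread. The ratio of Mapk11 to Mapk13 FPKM was 0.377, 0.457 and 0.433 in WT primary cultures 3, 4 and 5 and 2.08, 3.56 and 2.15 in the lines. The Prkd3-/- ratios were 0.460, 1.01 and 0.338 in primary cultures 13, 14 and 15, and 19.0, 1.27, 17.0 and 0.633 in lines 13, 13a, 14 and 15. The ratio was thus above 1 in all WT lines and in 3 of the 4 Prkd3-/- lines, and line 15 lay within the range of the primary cultures.

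**Figure D2:**
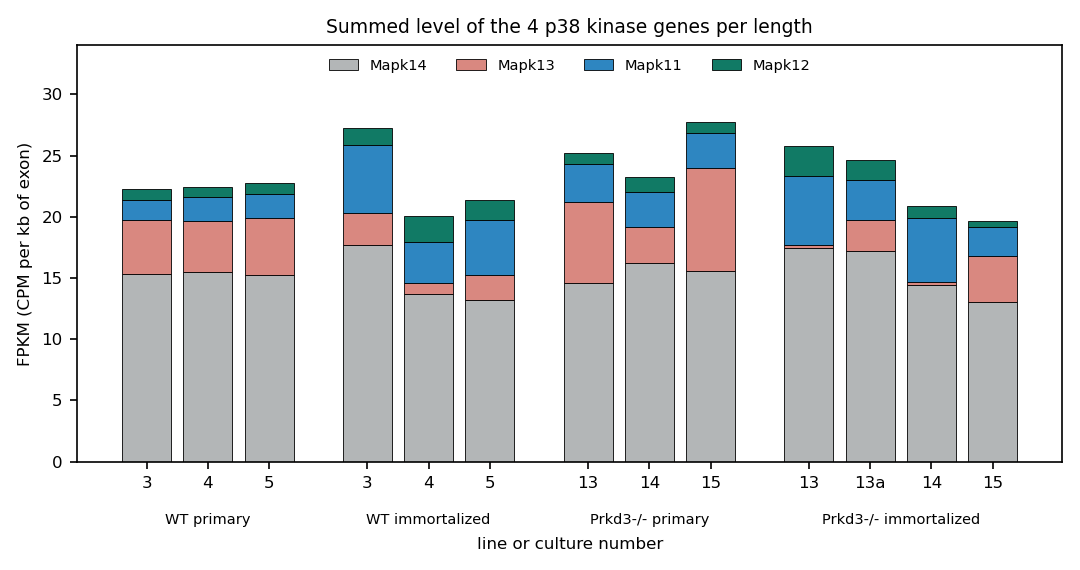
Summed level of the 4 p38 kinase genes in each library in FPKM, stacked by gene. Mapk14 is the largest part of every bar, Mapk11 is wider than Mapk13 in all 3 WT immortalized lines, and Mapk13 is almost absent from Prkd3-/- lines 13 and 14, where it made up 1.15 and 1.47% of the sum.

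Among the phosphatases that act on p38 and JNK, Dusp10 was higher in the WT lines, without a call, and Dusp1 was scattered in both genotypes. Dusp10 measured 8.45, 7.86 and 8.94 CPM in WT primary cultures 3, 4 and 5 and 48.7, 13.4 and 18.8 CPM in the WT lines. The WT groups did not overlap, and the Log2FC was 1.68 ± 0.50 (unadjusted p = 0.0155, adjusted p-value 0.142, edgeR), not called. Line 3 set much of its size: without it the Log2FC was 0.93 ± 0.17 (adjusted p-value 0.0328). In Prkd3-/- MEFs Dusp10 measured 17.3, 13.5 and 19.8 CPM in primary cultures and 13.1, 36.8, 27.0 and 20.2 CPM in lines 13, 13a, 14 and 15. Here 3 of the 4 lines were above all primary cultures and line 13 was below them, with a Log2FC of 0.52 ± 0.36 (adjusted p-value 0.843). Without line 13a it was 0.24 ± 0.34 (adjusted p-value 0.892).

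Dusp1, an immediate-early gene of stress and growth factor responses, measured 60.0, 59.2 and 88.9 CPM in WT primary cultures and 214, 27.2 and 58.6 CPM in lines 3, 4 and 5. Line 3 was above and line 4 below all primary cultures. The range was 7.87-fold, and the SD of log2 CPM between these lines was larger than that of 96.9% of tested genes. The sign of the Log2FC, 0.52 ± 0.74 (adjusted p-value 0.747, edgeR), turned to -0.69 ± 0.39 without line 3. Dusp1 in Prkd3-/- MEFs measured 44.9, 45.2 and 70.6 CPM in primary cultures and 78.8, 120, 22.1 and 48.9 CPM in lines 13, 13a, 14 and 15, with a Log2FC of 0.32 ± 0.53 (adjusted p-value 0.922). Without line 13a that value was -0.14, so that neither genotype gave Dusp1 a direction that held without 1 line. The primary cultures already differed: Dusp1 was highest in culture 5 in WT and culture 15 in Prkd3-/-.

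Dusp4 and Dusp6, the ERK-responsive phosphatase genes, overlapped between the states in WT. Dusp4 measured 16.0, 15.6 and 20.4 CPM in WT primary cultures and 24.8, 17.2 and 9.96 CPM in WT lines, on both sides of the primary values (Log2FC -0.003 ± 0.34, adjusted p-value 0.998, edgeR). Dusp6 measured 34.8, 37.3 and 40.2 CPM in WT primary cultures and 37.8, 22.1 and 29.3 CPM in the lines. Lines 4 and 5 were below all WT primary cultures and line 3 among them (Log2FC -0.33 ± 0.20, adjusted p-value 0.431).

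In Prkd3-/- MEFs the same phosphatase genes followed the line. Dusp4 measured 9.82, 37.1 and 18.4 CPM in primary cultures 13, 14 and 15 and 6.57, 91.1, 26.7 and 21.6 CPM in lines 13, 13a, 14 and 15, a 13.9-fold range over the lines. Lines 13 and 13a bear the same embryo number and were the lowest and the highest of the 4. The Log2FC of Dusp4, 0.74 ± 0.86 (adjusted p-value 0.888, edgeR), turned to -0.27 ± 0.66 without line 13a. Dusp6 measured 36.5, 70.2 and 51.8 CPM in primary cultures and 16.4, 72.6, 16.5 and 53.3 CPM in the lines (Log2FC -0.42 ± 0.58, adjusted p-value 0.903, and from -0.90 without line 13a to -0.16 without line 13). Lines 13 and 14 were below every primary culture, and these were the lines in which Mapk13 was lowest. Lines 13a and 15 were within or above the primary range.

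The Sprouty genes differed from each other in WT. Spry2 measured 46.2, 50.1 and 54.1 CPM in WT primary cultures and 34.5, 27.4 and 79.3 CPM in lines 3, 4 and 5, with line 5 above and the others below all primary cultures (Log2FC -0.09 ± 0.41, adjusted p-value 0.926, edgeR). Spry4 measured 20.3, 19.4 and 24.2 CPM in WT primary cultures and 12.3, 16.2 and 14.2 CPM in the lines, without overlap and with the smallest spread between WT lines of the 6 feedback genes. Its Log2FC of -0.58 ± 0.15 (unadjusted p = 0.00796, adjusted p-value 0.0980) was not called and was below the fold threshold. Spry2 in Prkd3-/- MEFs measured 57.3, 120 and 55.3 CPM in primary cultures and 28.9, 102.1, 43.7 and 58.9 CPM in lines 13, 13a, 14 and 15 (Log2FC -0.41 ± 0.48, adjusted p-value 0.887). Without primary culture 14, the highest, the Log2FC of Spry2 was 0.05. Spry4 measured 19.0, 26.6 and 26.1 CPM in Prkd3-/- primary cultures and 30.3, 25.7, 8.68 and 30.6 CPM in the lines. Line 14 alone was below the Spry4 values of the primary cultures, and the Log2FC was -0.02 ± 0.42 (adjusted p-value 0.997).

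**Figure D3:**
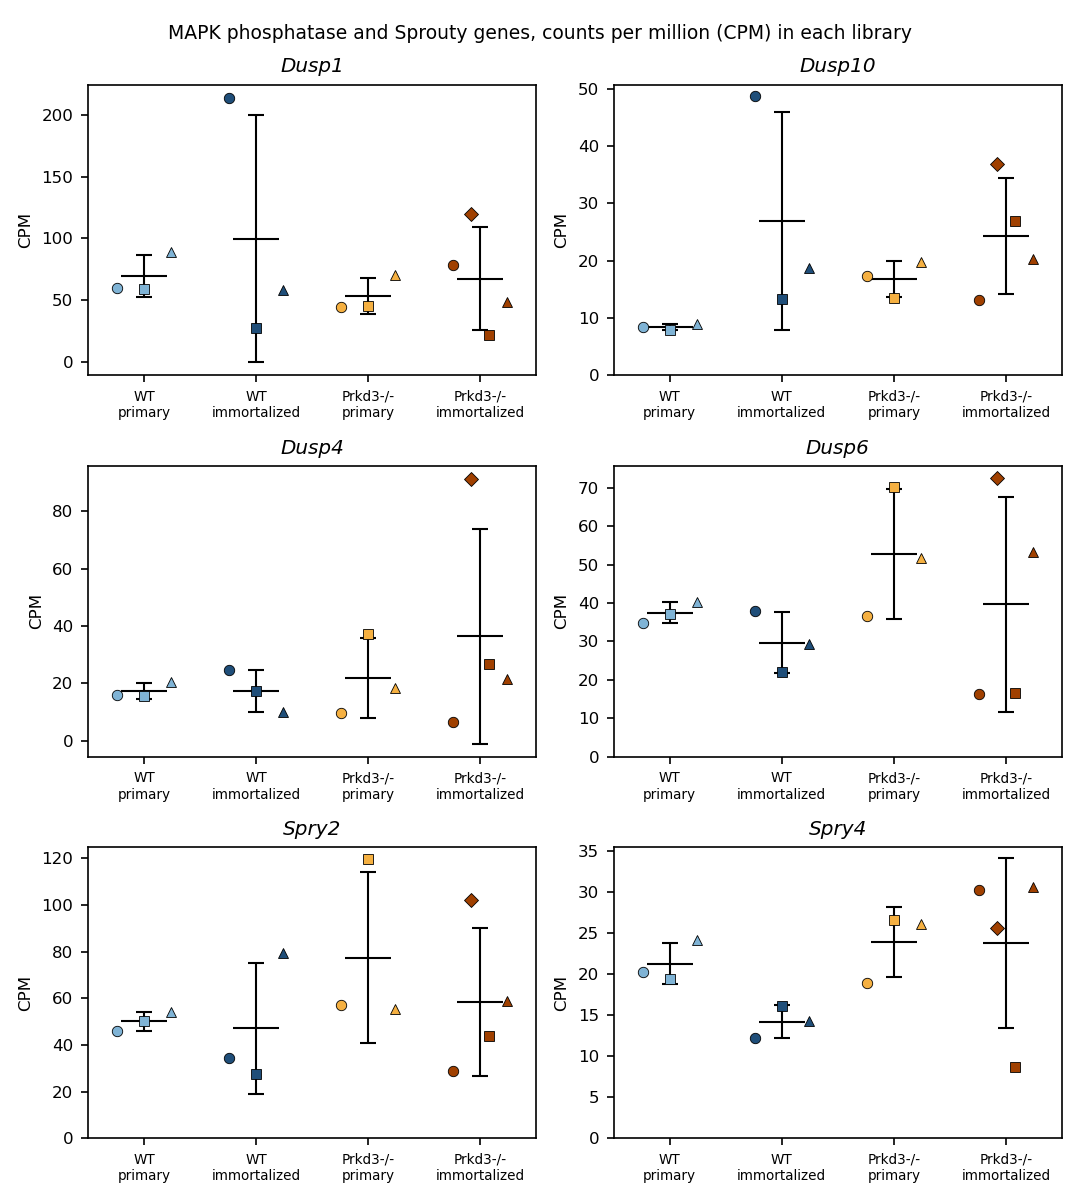
Level of the 4 phosphatase and 2 Sprouty genes in each library, in CPM, by genotype and state. Each point is 1 library (circles are clones 3 or 13, squares 4 or 14, triangles 5 or 15, the diamond line 13a), and bars give the mean ± SD. WT line 3 is far above the other WT lines for Dusp1 and Dusp10, line 13a is the highest Prkd3-/- line for 5 of the 6 genes, and only Dusp10 and Spry4 are apart between the WT states.

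Per length, Spry2 was the most abundant of the feedback genes in WT primary MEFs at 24.02 ± 1.90 FPKM, and Dusp1, at 21.0 ± 5.11 FPKM, did not differ from it beyond the spread. Dusp6 followed at 12.0 ± 0.861 FPKM, Dusp4 at 6.33 ± 0.978, Spry4 at 4.48 ± 0.530 and Dusp10 at 2.77 ± 0.178 FPKM (SD, n = 3). In WT lines Dusp10 reached 8.86 ± 6.26 FPKM and Spry4 2.99 ± 0.412 FPKM, so that Spry4 was the lowest of the 6 there. The spread of Dusp10 covered the levels of Dusp4, at 6.32 ± 2.7 FPKM, and of Dusp6, at 9.49 ± 2.52 FPKM.

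Between the states, no member was called in either genotype. In WT 361 of 19836 tested genes (1.82%) were called, and 0 of the 10 members, of which 5 had an unadjusted p-value under 0.05 (edgeR): Mapk11, Mapk12, Mapk13, Dusp10 and Spry4. DESeq2 called 3 of them, Mapk11, Mapk12 and Dusp10, and called 1361 genes in WT, many more than edgeR. The share of tested genes under DESeq2 is not given here. With the embryo as block, edgeR called 0 genes in WT, with 2784 at an unadjusted p-value under 0.05. The member median of the WT Log2FC was -0.03, against 0.04 over all tested genes, with 4 members positive and 6 negative. In Prkd3-/- 0 of 20298 genes (0%) were called by edgeR, with 1331 at an unadjusted p-value under 0.05, and DESeq2 called 190 genes and no member. The 10 members had 5 positive and 5 negative values there, with a median of 0.15 against 0.07 over all genes, and none had an unadjusted p-value under 0.05. Groups that did not overlap were found for 4.19% of genes above and 5.26% below in Prkd3-/-, and for no member.

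**Figure D4:**
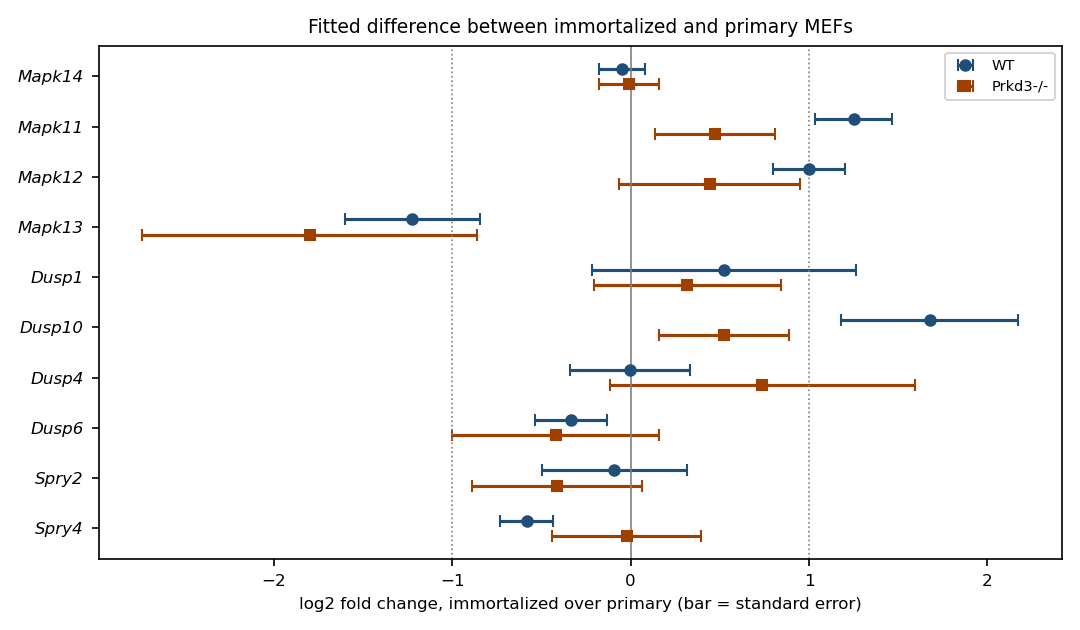
Log2FC of immortalized over primary MEFs for the 10 genes in WT (circles) and Prkd3-/- (squares), with standard errors as bars; dotted lines mark a Log2FC of 1 in either direction. Mapk14 lies at 0 in both genotypes, Mapk13 is negative in both, and the WT values of Mapk11, Mapk12 and Dusp10 lie at or beyond 1.

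Over both genotypes, the average state effect of Mapk11 was 0.87 ± 0.21 (adjusted p-value 0.0507, edgeR) in the joint fit of 13 libraries, in which 157 of 21197 genes (0.741%) and no member were called. With the embryo as block 5 genes and no member were called there. Dusp10 had an average Log2FC of 1.10 ± 0.32 (adjusted p-value 0.0938) and Mapk13 of -1.51 ± 0.58 (adjusted p-value 0.209). Mapk12 had 0.73 ± 0.30 (adjusted p-value 0.243), and with Mapk11, Dusp10 and Mapk13 it made up the 4 members with an unadjusted p-value under 0.05. Spry4 had -0.29 ± 0.25 (adjusted p-value 0.602), or -0.15 without Prkd3-/- line 14. The difference of the state effects between the genotypes was tested as an interaction, called at an adjusted p-value under 0.05, and edgeR called 0 of 21197 genes (0%), with 841 genes and no member at an unadjusted p-value under 0.05. DESeq2 called 37 genes and no member. The interaction of Dusp10, Prkd3-/- minus WT, was -1.15 ± 0.62 (unadjusted p = 0.0906) and that of Mapk11 -0.77 ± 0.42 (unadjusted p = 0.0945), both with an adjusted p-value of 1.00. Without WT line 3 the interaction of Dusp10 was -0.42, and its average Log2FC was 0.73. Mapk12 had -0.54 ± 0.60, Mapk13 -0.57 ± 1.15 and Spry4 0.58 ± 0.51. With 1 library left out at a time, the interaction of Mapk12 ranged from -0.95 (without line 13) to -0.27 (without line 15) and that of Mapk13 from -1.27 (without line 15) to -0.22 (without line 13). A difference between the genotypes in how these genes went with immortalization was therefore not shown.

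Between the genotypes in the primary state, Mapk11, Dusp10 and Spry2 were higher in every Prkd3-/- culture than in every WT culture, against 15.3% of tested genes. Dusp10 had a Log2FC of 1.00 ± 0.46 (unadjusted p = 0.0512, adjusted p-value 0.997, edgeR), Mapk11 of 0.66 ± 0.31 (unadjusted p = 0.0551) and Spry2 of 0.63 ± 0.50 (unadjusted p = 0.233), and none was called, as against 36 of 21197 genes (0.17%). Without Prkd3-/- culture 14 the Log2FC of Spry2 was 0.17 and that of Dusp10 1.14. No member was below in all Prkd3-/- cultures, against 18.4% of genes. The genotypes were counted in separate tables, and no library of one genotype is in the table of the other, so that genotype and any difference between the tables cannot be told apart. In the immortalized state all 10 members overlapped between the genotypes, against 4.43% of genes above and 4.17% below without overlap. No member and 55 genes (0.259%) were called, with member Log2FC values from -0.57 for Dusp1 to 1.08 for Dusp4. Without WT line 3 the value of Dusp1 was 0.66, and without line 13a that of Dusp4 was 0.0791.

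Spread between libraries was compared by state. The SD of log2 CPM was larger between immortalized than between primary libraries for all 10 members in both genotypes, as it was for 84.9% of tested genes in WT and 79.8% in Prkd3-/-. In WT, line 3 had the highest value for 7 of the 10 members, against 36.6% of genes, and in Prkd3-/- line 13a had the highest for 5, against 18.1% of genes. Line 14 was the highest Prkd3-/- line for none of them, against 29.1% of genes. Mapk14 had the smallest spread of the members between WT primary cultures, larger than that of 2.84% of genes, and between Prkd3-/- lines, larger than that of 17.4%. Between WT lines Spry4 had the smallest, beyond 40.1% of genes against 48.2% for Mapk14, and between Prkd3-/- primary cultures Mapk11, beyond 6.21% against 13.3%. Dusp4 and Mapk13 were the least even between Prkd3-/- lines, beyond 95.2 and 96.0% of genes.

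**Figure D5:**
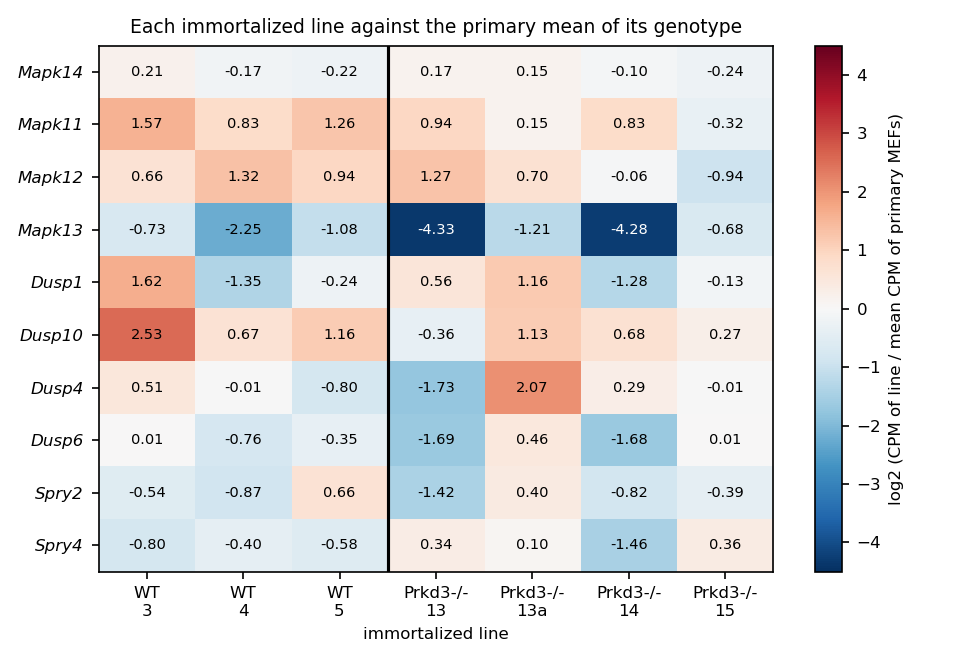
Each immortalized line against the mean of the primary cultures of its genotype, as log2 of the CPM ratio, for the 10 genes. Mapk13 is negative in all 7 lines, from -0.68 to -4.33, and Mapk11 is positive in 6 of 7. Mapk14, Dusp1, Dusp4, Dusp6 and Spry2 have both signs in each genotype.

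Some members varied together from library to library. With the mean of each group removed, Pearson's r over the 13 libraries was 0.80 for Mapk13 and Dusp6, 0.71 for Dusp6 and Spry2, 0.73 for Dusp4 and Dusp6 and 0.74 for Mapk14 and Dusp1. It was -0.63 for Mapk11 and Mapk13. For the neighbours Mapk11 and Mapk12 it was 0.43. These are descriptions over libraries that share embryos and scaling. Apart from the neighbours, the pairs named were those with the largest r in size among the members. The share of all gene pairs that reach such values was not computed. Among all genes, the profiles nearest over the 13 libraries, by Pearson's r of log2 CPM, included those of Gm9794 (0.91) and Pkp4 (0.88) to Mapk11, Ptrhd1 (0.95) and Wars (0.92) to Mapk12, Pomc (0.92) to Mapk13, and Gm46416 (0.91) and Amz1 (0.90) to Mapk14. For the phosphatases they were 4930523C07Rik and Gm26651 (both 0.88) to Dusp1, S100a10 and Elovl4 (both 0.84) to Dusp4, Cfap74 (0.93) and Cd28 (0.92) to Dusp6, and Prr5 (0.90) and Gm14124 (0.88) to Dusp10. Lingo2 (0.91) and Dgkk (0.90) were nearest to Spry2, and Gabra4 (0.93) and Smco4 (0.92) to Spry4.

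The genes around the members in the pathway gave 1 call in all, that of Ptpn7. Of 17 upstream kinases and scaffolds of p38, such as Map2k3 and Map2k6, none was called in either genotype, with a median Log2FC of 0.03 in WT and 0.02 in Prkd3-/-. Of 14 p38 substrates and effectors none was called (medians 0.10 and 0.11), nor of the 15 ERK cascade genes (0.13 and 0.12), the 12 ERK output genes (0.31 and 0.19), the genes of the JNK arm (0.12 and 0.30) or the 12 immediate-early genes (0.28 and -0.39). Hspb1, the small heat shock protein phosphorylated downstream of p38, ranged from 5.27 CPM in Prkd3-/- line 13 to 76.9 CPM in WT line 3. Hspb1 and Map2k6 were named after their values were seen.

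Among the other Sprouty and Spred genes none was called. Spry1 measured 53.2, 57.4 and 51.6 CPM in WT primary cultures and 13.4, 43.0 and 73.4 CPM in WT lines. In Prkd3-/- MEFs it was 13.4, 83.5 and 16.7 CPM in primary cultures 13, 14 and 15 and 3.76 to 48.0 CPM in the lines, so that Spry1, like Spry2, was highest in culture 14. Spred1 (111 to 166 CPM) and Spred2 (49.6 to 100 CPM) were more even over the 13 libraries. Spred3, at 24.6 to 26.5 CPM in WT and 36.5 to 49.5 CPM in Prkd3-/- primary cultures, did not overlap between the genotypes (Log2FC 0.69 ± 0.38, adjusted p-value 0.997, edgeR).

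Ptpn7, a tyrosine phosphatase of haematopoietic cells that acts on ERK and p38, was the single call among the 11 tested genes of other MAP kinase phosphatases. It measured 15.3, 14.4 and 13.4 CPM in WT primary cultures and 0.34, 0.37 and 0.96 CPM in WT lines, a Log2FC of -4.68 ± 0.47 (adjusted p-value 0.00569, edgeR). It was also called in the average over genotypes (-3.96 ± 0.64, adjusted p-value 0.00921). In Prkd3-/- primary cultures 13, 14 and 15 it measured 2.17, 12.4 and 3.09 CPM, the order of the macrophage markers in these cultures. Their part in the Ptpn7 values was not tested.

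Of the 3 protein kinase D genes none was called. Prkd1 measured 16.9 to 18.7 CPM in WT primary cultures and 14.1 to 33.4 CPM in WT lines, and 21.2 to 22.7 CPM and 14.7 to 36.9 CPM in Prkd3-/- MEFs. Prkd2 measured 27.3 to 29.7 CPM in WT primary cultures and 20.3 to 26.8 CPM in WT lines, without overlap (Log2FC -0.29 ± 0.12, adjusted p-value 0.276, edgeR). The Log2FC of Prkd3 between Prkd3-/- and WT primary cultures was -0.89 ± 0.16 (adjusted p-value 0.0516), without overlap and not called.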

How the data were processed

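Poly-A RNA of 13 MEF libraries was analysed, in 4 groups taken from the labels. For each genotype the authors deposited a table of raw read counts, with 55487 Ensembl genes each. Per the file headers and the labels, reads were checked with FastQC 0.12.0, mapped to mm10 with STAR 2.7.10a, processed with SAMtools 1.18 and counted as read pairs with featureCounts of Subread 2.0.6. The header of the WT table shows counting without a strand option, with overlapping genes both credited and multi-mapping pairs left out. The Prkd3-/- table carries no command, so its options are not given in the sources used here. These deposited counts entered the fits without change.

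Each genotype was fitted alone with edgeR 4.0.16 (quasi-likelihood, TMM, filter on low counts, robust) in R 4.3.3. The average over genotypes, the interaction and the genotype contrasts came from 1 joint fit of 13 libraries. Calls needed a Benjamini-Hochberg adjusted p-value below 0.01 with a Log2FC of 1 or more in size, and interactions one below 0.05. Log2FC values came from edgeR's fit with its default prior count, and their standard error is their size divided by the root of the F statistic. A prior count of 1 was used for the log2 CPM of the correlations. CPM used TMM over 13 libraries, and FPKM was that CPM per kb of the counted exon length. The floor of 3 counts covers counting error only, and PCR copies are not independent molecules. SD values measure the spread between libraries, and the standard errors come from a fit that includes this spread. Alternatives were DESeq2 1.42.0, its size factors, no filter, limma 3.58.1 voom with group weights, another threshold, the joint fit, an embryo block, lines 13 and 13a summed, and each library left out in turn. On simulated counts the fits recovered most of the well-counted genes that had been changed. The simulated spread was below that between the immortalized lines, so that recovery at their spread was not tested.

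Members, gene lists and tests were chosen with earlier results of these data known. Named beside the members were list genes called in any comparison, up to 4 per list, the other Sprouty, Spred and protein kinase D genes, and the 2 genes nearest to each member by correlation. A gene among these is not reported here. Of 155 list genes 154 matched a symbol. Spry3 was not matched.

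The study's methods take a clone number as 1 embryo, and line 13a was taken as embryo 13 by its name. Deviations from group means of same-numbered libraries correlated at -0.03, 0.02 and -0.04 in WT and at 0.14, -0.28, 0.09 and 0.04 for 13, 13a, 14 and 15. P-values set the difference of group means against the spread between these libraries. The main fits took libraries of the same embryo, lines 13 and 13a among them, as independent. Promoter sequences came from RefSeq (GRCm38.p6).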

Additional observations from a re-analysis of the deposited data

How the results depend on the processing

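No member was called in any comparison when any 1 library was left out, and none under DESeq2 size factors, no filter, voom, the joint fit, the embryo block or lines 13 and 13a summed. In WT, 1 member (Mapk11) was called at an adjusted p-value under 0.05 and 3 (Mapk11, Mapk12 and Dusp10) by DESeq2. Over all genes, the threshold of 0.05 gave 868 WT calls, 593 in the average, and 78 and 137 between the genotypes in the primary and immortalized states. DESeq2 gave 1361, 190 in Prkd3-/-, 915 in the average, 37 in the interaction, 152 and 410. Voom gave 198 in WT, 94 in the average, 241 and 21. The joint fit gave 0 in WT and 1 in Prkd3-/-, and summing lines 13 and 13a gave 270 in the average. With the embryo as block the calls fell to 0 in WT and 5 in the average; the pairing changed no other call, and Dusp1 reversed to -0.0165 in WT and -0.0890 in Prkd3-/-. Leaving out 1 library at a time gave 48 to 743 WT calls (lowest without WT primary culture 3, highest without WT line 5), 14 to 420 in the average (without WT primary culture 5 and without line 13a), 0 to 2 in the interaction, and 13 to 45 and 36 to 67 between the genotypes. These members changed sign in this way: in WT, Dusp1 from -0.69 to 0.97, Dusp4 from -0.35 to 0.28, Mapk14 from -0.19 to 0.0331 and Spry2 from -0.69 to 0.18, and in Prkd3-/-, Dusp1 from -0.14 to 0.61, Dusp4 from -0.27 to 1.37, Mapk14 from -0.0776 to 0.0670, Spry2 from -0.84 to 0.0480 and Spry4 from -0.17 to 0.25. Without the filter WT Dusp4 was 0.000536, and in the joint fit Prkd3-/- Mapk14 was 0.00434. Mapk11, Mapk12, Mapk13, Dusp6 and Dusp10 kept their sign within each genotype under every alternative run. A kept sign did not require a small p-value: Dusp6 had adjusted p-values of 0.431 in WT and 0.903 in Prkd3-/- (edgeR). The cause of these shifts was not tested. Depth was not limiting for the members, the lowest of which had 0.94 CPM against a floor of at most 0.0842 CPM.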

Other observations

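Dusp2, an inducible nuclear phosphatase gene of the other MAP kinase phosphatases, was near the floor in most libraries and high in the lines that were also high for Dusp1 and Dusp10. It measured 0.11 to 0.26 CPM in the 6 primary cultures, 21.9, 0.12 and 1.54 CPM in WT lines 3, 4 and 5, and 0.29, 5.93, 0.17 and 0.12 CPM in Prkd3-/- lines 13, 13a, 14 and 15. The Log2FC of 5.35 ± 1.85 in WT was not called (adjusted p-value 0.192, edgeR). Dusp2 was chosen after its values were seen.

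Dusp5, which encodes a nuclear phosphatase specific for ERK, measured 17.0, 16.5 and 17.4 CPM in WT primary cultures and 44.5, 67.9 and 69.6 CPM in Prkd3-/- primary cultures, without overlap. Its Log2FC between the genotypes was 1.84 ± 0.65 (unadjusted p = 0.0157, adjusted p-value 0.714, edgeR). WT line 3, at 93.9 CPM, reached the Prkd3-/- range, and WT lines 4 and 5, at 16.5 and 21.6 CPM, did not. Phlda1, a growth factor response gene, measured 22.9 to 23.3 CPM in WT and 47.4 to 104 CPM in Prkd3-/- primary cultures (Log2FC 1.77 ± 0.50, adjusted p-value 0.375), and 45.2 to 123 CPM in WT lines. Both genes were chosen after their values were seen, and genotype and table cannot be told apart.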
